A study of Homo sapiens with 12 samples.

Results

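The enzymes and transporters that carry glucose to pyruvate, together with the genes that cells induce when oxygen is short, were followed in 2 hepatocellular carcinoma cell lines that respond differently to DAAD2. The list held 34 genes, and a gene was measured where an array probe set was annotated with its symbol alone. That left 32 genes on 70 tested probe sets, among 19775 genes with such a probe set, while CA9 and SLC16A3 were not analysed here. Of the 32 genes, 22 had more than 1 probe set, and the brightest of them on average over the 12 arrays stood for the gene.

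DAAD2 is (+)-N-(N-acetyl-L-cysteine)-dehydroabietylamine, a derivative of a plant diterpene amine that was tested for its toxicity to tumour cells. Hep3B cells, which the sample labels call sensitive, received 2 µM DAAD2 for 72 h, and SNU449 cells, which they call resistant, received 20 µM for 72 h. Control cultures of each line received the vehicle alone, 0.1% DMSO, for the same time, and each of the 4 groups was measured on 3 Affymetrix U133 Plus 2.0 arrays (12 arrays). Each line is a single model and the dose differed between them, so line and dose cannot be told apart, and p-values here measure the spread between arrays of treatments done in triplicate, not between tumours, since separate cultures are not stated for each array.

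The lines carried different identities, and not every hepatocyte marker was present in both. Albumin (ALB) had a mean log2 level of 14.53 in Hep3B controls and of 3.18 in SNU449 controls. The array median over all probe sets had a mean of 3.78 over the 12 arrays. Counts of markers above the array median use the mean median of the arrays of each group. All 9 measured hepatocyte markers lay above the array median in Hep3B controls and 6 of 9 in SNU449 controls, where ALB, apolipoprotein B (APOB, 3.52) and fetuin A (AHSG, 3.66) lay below it. Some of the 6 were dim there, such as TF (4.38) and SERPINA1 (4.41). Of the 9, 8 were called lower in SNU449, with a list median of -8.73, where 21.4% of all genes were called lower. All 5 keratin and epithelial markers were called lower there too, from -0.92 for KRT18 to -8.34 for EPCAM. Fibrinogen FGB ran the other way, at 10.06 in SNU449 and 6.01 in Hep3B controls (difference 4.05, adjusted p = 3.76e-07). Of the mesenchymal markers 10 of 10 were above the median in SNU449 controls and 5 of 10 in Hep3B controls, and 9 of the 10 were called higher in SNU449 while fibronectin (FN1) was lower by 0.81. The leukocyte marker PTPRC stayed at 2.99 to 3.23 in all groups, although lysozyme (LYZ) reached 12.14 in Hep3B controls. Of the leukocyte markers 5 of 7 lay above the array median in Hep3B controls and 2 of 7 in SNU449 controls. The endothelial marker CDH5 stayed at 2.95 to 3.01, but 3 of 6 endothelial markers lay above the array median in each control group. Among them PECAM1 was at 5.83 in Hep3B and 5.88 in SNU449 controls. One SNU449 array, DAAD2 replicate 2, had the widest gap between the 3′ and 5′ control probe sets of GAPDH, 1.99 log2 units against 0.34 to 1.51 on the other arrays. For the 32 genes, the calls in SNU449 and in the difference in response are given with and without that array. For ACTB the widest gap was on Hep3B DAAD2 replicate 3, at 3.27, followed by that SNU449 array at 3.04 and by 1.82 to 2.90 on the others.

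Glycolysis first spends energy to trap and split glucose and then regains it while making pyruvate, and most steps can be run by several isozymes from separate genes. In low oxygen the prolyl hydroxylases EGLN1 and EGLN3 mark less of the hypoxia-inducible factors HIF-1α (HIF1A) and HIF-2α (EPAS1) for destruction, and these factors then raise the genes of glucose uptake, glycolysis and pyruvate diversion. The factors are controlled largely through protein stability, so that array levels of their mRNA do not measure their activity. Hepatocytes are known for glucokinase and for making glucose, whereas many tumour cells use the hexokinases HK1 and HK2.

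The factors bind a short core, written here as ACGTG or GCGTG and read on both strands, so that CACGT and CACGC also count and overlapping matches count as 1 site. The windows of 250 bases before a transcription start are shown for the 3 genes that were higher in Hep3B than in SNU449 controls (EPAS1, HK2 and ALDOC) and for PGAM1, whose response differed between the lines, because these genes carry the results below. They come from RefSeq on GRCh38.p14 and run 5′ to 3′ with each core in capitals. The windows are EPAS1 at chr2:46297157-46297406 (plus strand), HK2 at chr2:74833877-74834126 and at chr2:74834920-74835169 (plus strand, a window for each of its listed starts), ALDOC at chr17:28576896-28577145 (minus strand) and PGAM1 at chr10:97427568-97427817 (plus strand).
EPAS1: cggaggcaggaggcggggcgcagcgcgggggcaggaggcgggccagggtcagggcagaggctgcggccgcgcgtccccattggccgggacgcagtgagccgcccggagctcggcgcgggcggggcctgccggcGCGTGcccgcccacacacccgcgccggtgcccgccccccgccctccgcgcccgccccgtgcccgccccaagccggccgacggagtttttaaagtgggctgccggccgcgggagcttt
HK2 first start: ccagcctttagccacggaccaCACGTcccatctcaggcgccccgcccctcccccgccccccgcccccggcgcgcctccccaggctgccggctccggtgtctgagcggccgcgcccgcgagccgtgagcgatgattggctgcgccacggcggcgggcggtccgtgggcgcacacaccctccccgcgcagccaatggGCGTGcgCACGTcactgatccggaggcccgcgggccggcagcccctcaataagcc
HK2 second start: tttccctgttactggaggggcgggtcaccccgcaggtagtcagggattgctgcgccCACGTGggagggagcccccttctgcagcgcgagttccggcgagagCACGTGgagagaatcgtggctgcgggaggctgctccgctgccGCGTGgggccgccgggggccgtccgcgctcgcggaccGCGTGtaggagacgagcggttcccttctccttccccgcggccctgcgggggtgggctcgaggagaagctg
ALDOC: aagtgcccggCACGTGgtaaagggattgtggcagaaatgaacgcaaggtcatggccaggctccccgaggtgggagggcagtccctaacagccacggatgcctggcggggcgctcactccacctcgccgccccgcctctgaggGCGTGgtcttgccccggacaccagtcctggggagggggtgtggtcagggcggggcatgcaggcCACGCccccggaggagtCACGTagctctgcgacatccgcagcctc
PGAM1: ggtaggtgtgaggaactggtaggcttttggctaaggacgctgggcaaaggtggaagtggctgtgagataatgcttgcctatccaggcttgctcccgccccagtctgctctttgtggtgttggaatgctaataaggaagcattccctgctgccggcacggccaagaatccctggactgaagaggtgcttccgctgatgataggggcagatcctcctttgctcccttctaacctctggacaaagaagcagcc

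The EPAS1 window held 1 site, the HK2 windows 3 and 4, the ALDOC window 4 and the PGAM1 window 0. The PGAM1 window lies before its listed start but inside the span annotated for the gene, chr10:97426191-97433444. Bases before that span were not searched, so the 0 holds for this window alone. The second HK2 window likewise lies inside the span of its gene. Windows were found for 29 of the genes, and 24 of the 29 (82.8%) had a core in at least 1 window, against 47.4% of all 27305 genes with a window. The comparison by gene favours genes with several listed starts, and over single windows the shares were 57.7% of the 52 windows of these genes and 43.2% of all 35116 windows. The core ACGTG, with or without the other core, was in 36.5% of their windows and 18.5% of all windows, and GCGTG, counted in the same way, in 32.7% and 32.2%. A match in these letters is a description of the window and no binding site.

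In the DMSO controls most of these genes were higher in SNU449 than in Hep3B. Of the 32 genes, 27 were higher at an adjusted p under 0.05 (limma, Benjamini-Hochberg over all 54613 tested probe sets), where 19.4% of all genes were called higher. The 3 called lower in SNU449 were EPAS1, HK2 and ALDOC, where 21.4% of all genes were called lower. Fewer cells expressing a gene and less RNA per cell cannot be told apart in such bulk samples. The median log2 difference of the 32 genes was 1.01, against 0.01 over all genes. The arrays of the lines did not overlap for 28 genes that were higher in SNU449 and for 3 that were lower, where 25.6% and 26.5% of all genes were so.

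**Figure D1:**
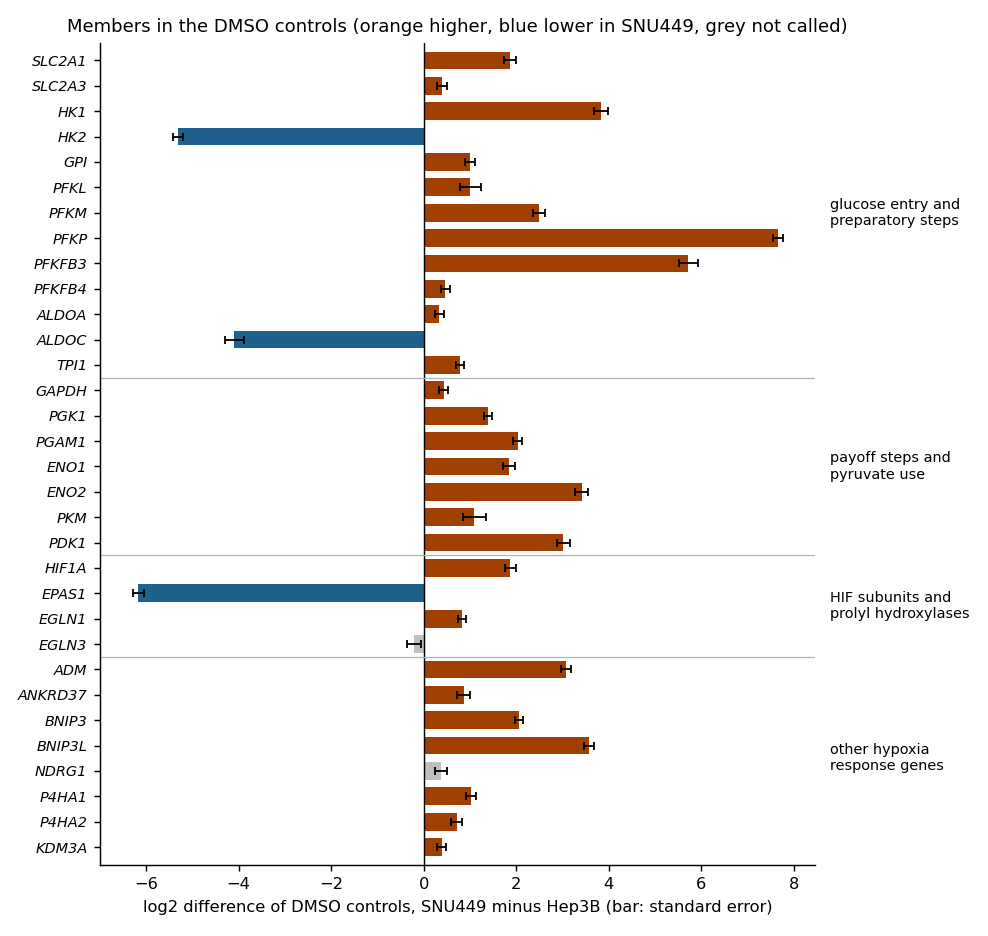
Log2 difference between the DMSO controls, SNU449 minus Hep3B, for each of the 32 genes in order of pathway step, with bars of 1 standard error from limma (3 arrays per line). Most bars point to SNU449, from 0.34 for ALDOA to 7.65 for PFKP, whereas HK2 (-5.31), ALDOC (-4.09) and EPAS1 (-6.17) point to Hep3B and the 2 grey genes, NDRG1 and EGLN3, were not called.

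The hexokinase step differed by isozyme. HK1, the widespread hexokinase that phosphorylates glucose, had log2 levels of 5.12, 4.87 and 4.71 in Hep3B controls and of 8.43, 8.83 and 8.93 in SNU449 controls. HK2, the hexokinase usually linked to insulin-sensitive tissue and tumours, ran the other way, at 8.79, 8.90 and 8.95 in Hep3B and 3.74, 3.56 and 3.40 in SNU449. No array of a line reached the range of the other line for either gene. The log2 difference, SNU449 minus Hep3B, was 3.83 ± 0.16 (SE, adjusted p = 2.15e-07) for HK1, a 14.2-fold difference, and -5.31 ± 0.11 (adjusted p = 5.36e-09) for HK2, 39.7-fold higher in Hep3B. The SNU449 level of HK2 lay below the mean array median of 3.78, so that this fold depends on how the array reports dim probe sets. Both other HK2 probe sets lay between 3.59 and 4.59 in every group mean and were not called between the lines, so that the mean over all 3 differed by -1.71.

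Phosphofructokinase, the pace-setting step, showed a wider gap. PFKP, its platelet-type subunit, was at 4.04, 3.98 and 4.33 in Hep3B controls and at 11.75, 11.76 and 11.80 in SNU449 controls. The log2 difference was 7.65 ± 0.11 (adjusted p = 9.19e-10), or 201-fold, the widest measured among the 32 genes. The Hep3B mean of 4.12 lay near the mean array median of 3.78, so that the fold and its rank depend on how the array reports dim probe sets. The muscle-type PFKM was higher in SNU449 by 2.50 and the liver-type PFKL by 1.01 log2 units. PFKFB3, which makes the strongest known activator of phosphofructokinase, was at 4.74, 4.28 and 5.23 in Hep3B controls and at 10.57, 10.31 and 10.52 in SNU449 controls. Its difference was 5.72 ± 0.21 (adjusted p = 1.26e-07), whereas PFKFB4, a related enzyme, differed by 0.47. The other PFKP probe set was dim in both lines (3.42 and 3.74) and was not called, and the mean of both PFKP probe sets differed by 3.99.

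At the aldolase step, ALDOC, the brain-type aldolase, was higher in Hep3B while ALDOA, the widespread form, differed little. The 3 Hep3B controls had ALDOC at 8.28, 8.68 and 8.20, and the SNU449 controls at 4.72, 3.96 and 4.19. The difference was -4.09 ± 0.20 (adjusted p = 7.35e-07), 17.0-fold higher in Hep3B. ALDOA was at 12.28 and 12.62 on average in the same groups, a difference of 0.34 ± 0.10 (adjusted p = 0.034). GPI and TPI1, isomerases that act before and after that step, were higher in SNU449 by 1.0 and 0.78, and the glucose transporter SLC2A1 by 1.87. SLC2A3, the neuronal glucose transporter, was called higher in SNU449 by 0.40, yet its 4 group means (3.16 to 3.74) lay below the mean array median of 3.78 and it was the only gene of the list for which this held.

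**Figure D2:**
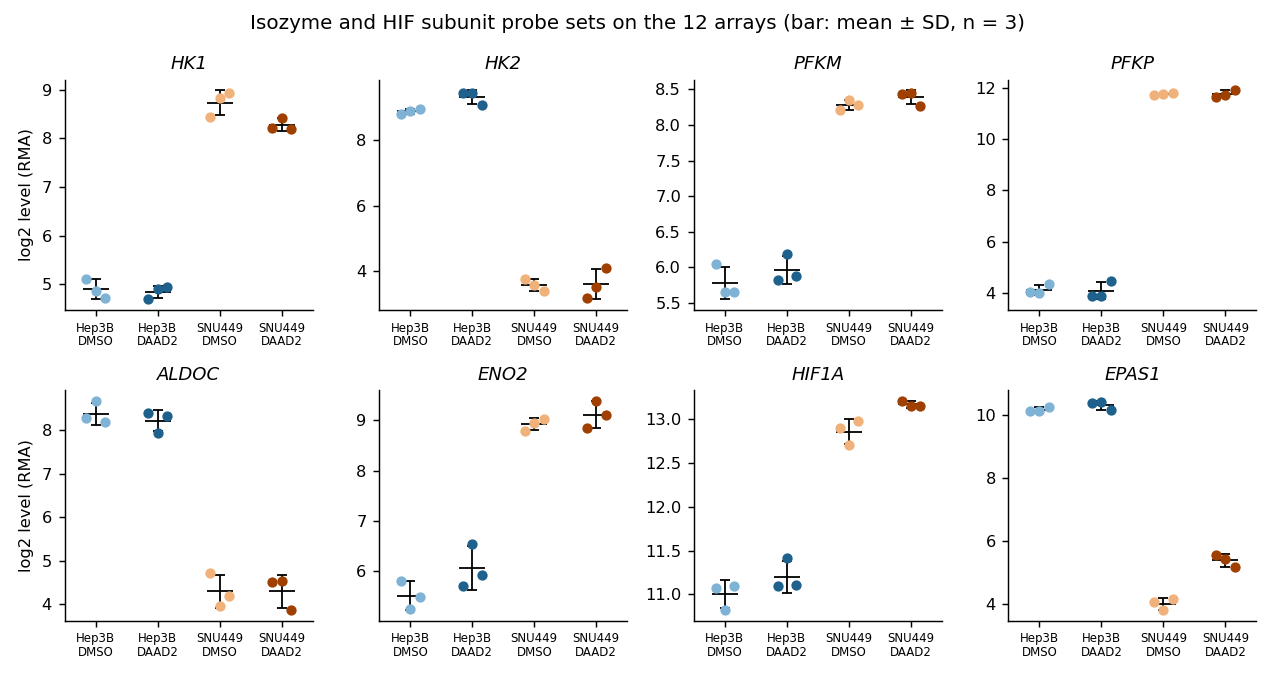
Log2 level on each of the 12 arrays for 6 isozyme genes and both HIF subunit genes, with the mean and SD of 3 arrays per group. HK2, ALDOC and EPAS1 sit high in Hep3B while HK1, PFKM, PFKP, ENO2 and HIF1A sit high in SNU449, and the heights of different genes are not comparable with each other because each has its own probe set and axis.

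The listed genes of the later steps were all higher in SNU449 controls, whereas other isozymes of the same steps, ENO3 (-3.21), the liver pyruvate kinase PKLR (-1.51) and the muscle mutase PGAM2 (-0.70), were lower there. ENO2, the neuronal enolase, had the widest of these differences, with 5.81, 5.24 and 5.48 in Hep3B and 8.79, 8.94 and 9.03 in SNU449, or 3.41 ± 0.15 log2 units (adjusted p = 3.42e-07). PGAM1, the phosphoglycerate mutase, was higher by 2.03, the enolase ENO1 by 1.85, the kinase PGK1 by 1.39 and pyruvate kinase PKM by 1.09, while GAPDH differed by 0.43. PDK1, a kinase that inhibits pyruvate dehydrogenase, was higher by 3.02 ± 0.15 (adjusted p = 8.77e-07). Several of these genes have close copies elsewhere in the genome, and their probe sets are named as sharing sequence (suffix s or x) for PGAM1, ENO1, PGK1, GAPDH and TPI1.

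The HIF subunits differed in opposite directions. HIF1A was at 11.07, 10.82 and 11.10 in Hep3B controls and at 12.90, 12.71 and 12.98 in SNU449 controls, a difference of 1.87 ± 0.12 (adjusted p = 3.68e-06). EPAS1 was at 10.13, 10.15 and 10.25 in Hep3B and at 4.06, 3.80 and 4.15 in SNU449, a difference of -6.17 ± 0.12 (adjusted p = 2.92e-09), 72.2-fold higher in Hep3B. The other EPAS1 probe sets, with means of 2.78 to 3.29 in every group, were not called between the lines, and the mean over all 3 differed by -2.09. EGLN1, the main oxygen-sensing prolyl hydroxylase, was higher in SNU449 by 0.83, although another of its probe sets was called lower there by 0.44. EGLN3 did not pass the test (-0.21, adjusted p = 0.371), and its group means of 3.42 to 3.79 lay near or below the mean array median of 3.78.

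Among the other hypoxia response genes, BNIP3L, a mitophagy receptor, was higher in SNU449 by 3.58 ± 0.11 (adjusted p = 4.76e-08), with 7.29, 7.28 and 7.28 in Hep3B and 10.74, 10.76 and 11.08 in SNU449. Its relative BNIP3 was higher by 2.06 and the vasoactive peptide adrenomedullin (ADM) by 3.08. The collagen prolyl hydroxylases P4HA1 and P4HA2 were higher by 1.02 and 0.71, ANKRD37 by 0.86 and the histone demethylase KDM3A by 0.39. Another ANKRD37 probe set, with means of 3.54 in Hep3B and 3.07 in SNU449 controls, was called lower in SNU449 (-0.47, adjusted p = 0.0334). NDRG1, a stress-induced gene, differed by 0.38 and missed the threshold (adjusted p = 0.0651). Leaving out any 1 array left 24 to 27 genes called higher and 3 called lower.

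After DAAD2 no gene of the list was called in Hep3B, and none of the 54613 probe sets passed there, so that 0.0% of all genes were called. Trended and robust variances called 271 probe sets higher and 48 lower in Hep3B, with none of the 32 genes among them. The changes were small and more often upward. Of the 32 genes, 23 had a log2 change above 0, against 48.6% of all genes, and the median change was 0.15 against -0.01. At an unadjusted p under 0.05, 11 genes were higher and ADM was lower, where 13.6% and 6.63% of all genes were so. The arrays did not overlap for 12 higher genes and 1 lower gene, where the shares of all genes were 15.9% and 10.3%. The median of the list fell to 0.06 with quantile normalization of the deposited values and to 0.03 with cyclic loess. Under these, 20 and 19 of the 32 genes lay above 0, against 44.1% and 47.2% of all genes. Centring on array medians raised the median to 0.2, with 27 genes above 0, against 60.1% of all genes. Markers of cell identity moved beside them without a call in Hep3B. Of 9 hepatocyte markers 7 lay below 0, 6 of them without overlap and 5 at an unadjusted p under 0.05, and 5 of 5 keratin and epithelial markers lay above 0, 3 of them at an unadjusted p under 0.05. Their part in the changes of the list was not tested.

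The 3 largest increases in Hep3B were in PFKFB3, PDK1 and ENO2, none of which passed the test. PFKFB3 was at 4.74, 4.28 and 5.23 with DMSO and at 5.72, 5.93 and 5.07 with DAAD2, and DAAD2 replicate 3 lay inside the control range. Its change was 0.82 ± 0.27 (adjusted p = 0.213). PDK1 was at 6.34, 5.80 and 6.14 with DMSO and at 6.59, 7.04 and 6.39 with DAAD2, without overlap, a change of 0.58 ± 0.19 (adjusted p = 0.208), which was 0.21 as the mean of its 3 probe sets. ENO2 changed by 0.54 ± 0.22 (adjusted p = 0.302) and had 1 DAAD2 array, at 5.70, inside the control range, and the change was 0.30 without DAAD2 replicate 2. Other genes whose arrays did not overlap were P4HA2 (0.45), HK2 (0.44), KDM3A (0.39), EGLN1 (0.32), ENO1 (0.32), PGAM1 (0.28), GPI (0.26), TPI1 (0.23), SLC2A1 (0.21), ALDOA (0.15) and BNIP3 (0.11). DAAD2 replicate 3, the array with the wide ACTB gap, was nearest to the control mean for 16 of the 32 genes, against 9 and 7 for replicates 1 and 2, and without it the median change was 0.19 and 0 genes were called.

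The largest decreases in Hep3B were also below the threshold. ADM was at 7.63, 7.68 and 7.45 with DMSO and at 7.29, 7.30 and 7.16 with DAAD2, and the groups did not overlap. The change was -0.34 ± 0.10 (adjusted p = 0.181). ANKRD37 (-0.17, adjusted p = 0.655) and ALDOC (-0.16, adjusted p = 0.689) overlapped between the groups. HIF1A and EPAS1 changed by 0.20 and 0.14, with 95% intervals of -0.08 to 0.49 and of -0.09 to 0.38.

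**Figure D3:**
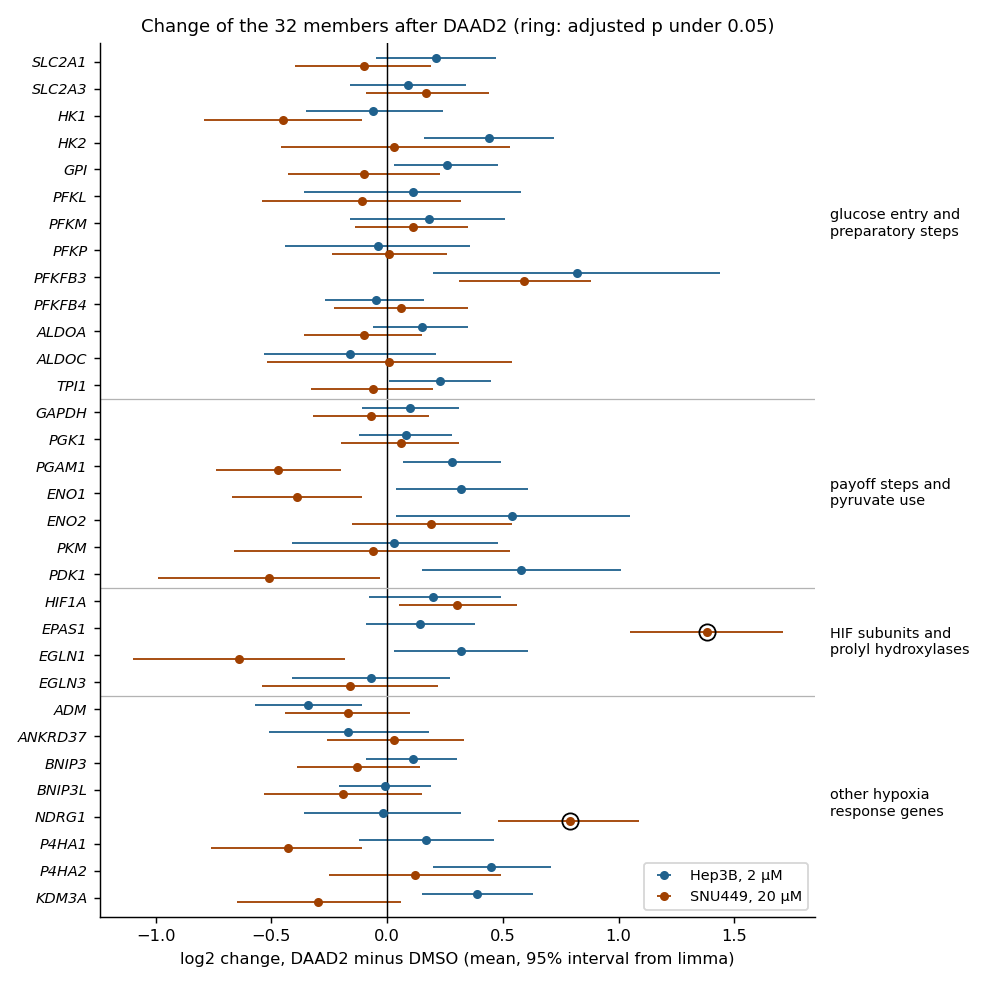
Log2 change after DAAD2 for each of the 32 genes in Hep3B (blue, 2 µM) and SNU449 (orange, 20 µM), with 95% intervals from limma on 3 arrays per group and rings for an adjusted p under 0.05. Only EPAS1 (1.38) and NDRG1 (0.79) in SNU449 carry a ring, and the Hep3B points of PGAM1, ENO1, PDK1 and EGLN1 lie right of 0 while their SNU449 points lie left of it.

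In SNU449 cells 2 genes of the list rose after DAAD2, EPAS1 and NDRG1, and 0 fell, where 1.82% of all genes were called higher and 0.561% lower. The median change of the 32 genes was -0.07 against 0.0 for all genes, and 14 of them lay above 0, against 50.7% of all genes. The arrays did not overlap for 4 higher genes and 5 lower genes, where 11.2% and 8.94% of all genes were so. At an unadjusted p under 0.05, 4 genes were higher and 6 were lower, where 9.42% and 7.18% of all genes were so.

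EPAS1 was at 4.06, 3.80 and 4.15 with DMSO and at 5.56, 5.44 and 5.16 with DAAD2. All DAAD2 arrays lay above all controls. The change was 1.38 ± 0.15 (adjusted p = 0.00497), a 2.61-fold rise, and it stayed under the threshold without any 1 array (adjusted p from 0.00908 to 0.0354). The level after DAAD2 (mean 5.38) was still below the Hep3B control mean of 10.18. The control level lay near the mean array median of 3.78, and both other EPAS1 probe sets changed by 0.22 and -0.01, so that the mean over its 3 probe sets changed by 0.53 (adjusted p = 0.0183).

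NDRG1 was at 6.96, 6.77 and 6.72 with DMSO and at 7.59, 7.41 and 7.80 with DAAD2, again without overlap. The change was 0.79 ± 0.13 (adjusted p = 0.0295). The call was lost without any 1 of 5 arrays, that is, all but DAAD2 replicate 2 (adjusted p from 0.0264 to 0.152), and with quantile normalization (0.055). PFKFB3, at 10.57, 10.31 and 10.52 with DMSO and 11.06, 10.92 and 11.20 with DAAD2, changed by 0.59 ± 0.12 and missed the threshold (adjusted p = 0.0622), which it passed with trended and robust variances (0.0157). HIF1A changed by 0.30 (adjusted p = 0.313) and its arrays did not overlap either.

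The lower values in SNU449 were in EGLN1, PDK1 and PGAM1, none of which passed the test. EGLN1 was at 10.05, 10.09 and 10.13 with DMSO and at 9.05, 9.94 and 9.37 with DAAD2, so that DAAD2 replicate 2 stayed closest to the controls. The change was -0.64 ± 0.20 (adjusted p = 0.211), and its other 3 probe sets changed by -0.48, -0.09 and 0.14, a mean over all 4 of -0.27. PDK1 was at 8.98, 9.05 and 9.31 with DMSO and at 8.17, 9.07 and 8.58 with DAAD2, a change of -0.51 ± 0.21 (adjusted p = 0.389). DAAD2 replicate 2 lay inside the control range. The change was -0.74 without that replicate, still not called, and -0.29 without DAAD2 replicate 1. The mean of the 3 PDK1 probe sets changed by -0.30. PGAM1 was at 12.69, 12.73 and 12.77 with DMSO and at 12.15, 12.45 and 12.16 with DAAD2, without overlap, a change of -0.47 ± 0.12 (adjusted p = 0.111). HK1 (-0.45), P4HA1 (-0.43) and ENO1 (-0.39) were lower without overlap of their arrays and without passing the test.

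That array was also the one nearest to the control mean for 21 of the 32 genes, against 3 and 8 for DAAD2 replicates 1 and 3, and it had the wide GAPDH gap given above. Its 5′ GAPDH control probe set was at 11.72, against 13.00 and 12.98 on the other DAAD2 arrays, while the 3′ probe set was at 13.69 to 13.71 on all of them. The part of RNA quality in these values was not tested. Without this array 3 genes were called higher (EPAS1, NDRG1 and PFKFB3) and 2 lower (EGLN1, -0.88, adjusted p = 0.0264, and PGAM1, -0.57, adjusted p = 0.0482).

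**Figure D4:**
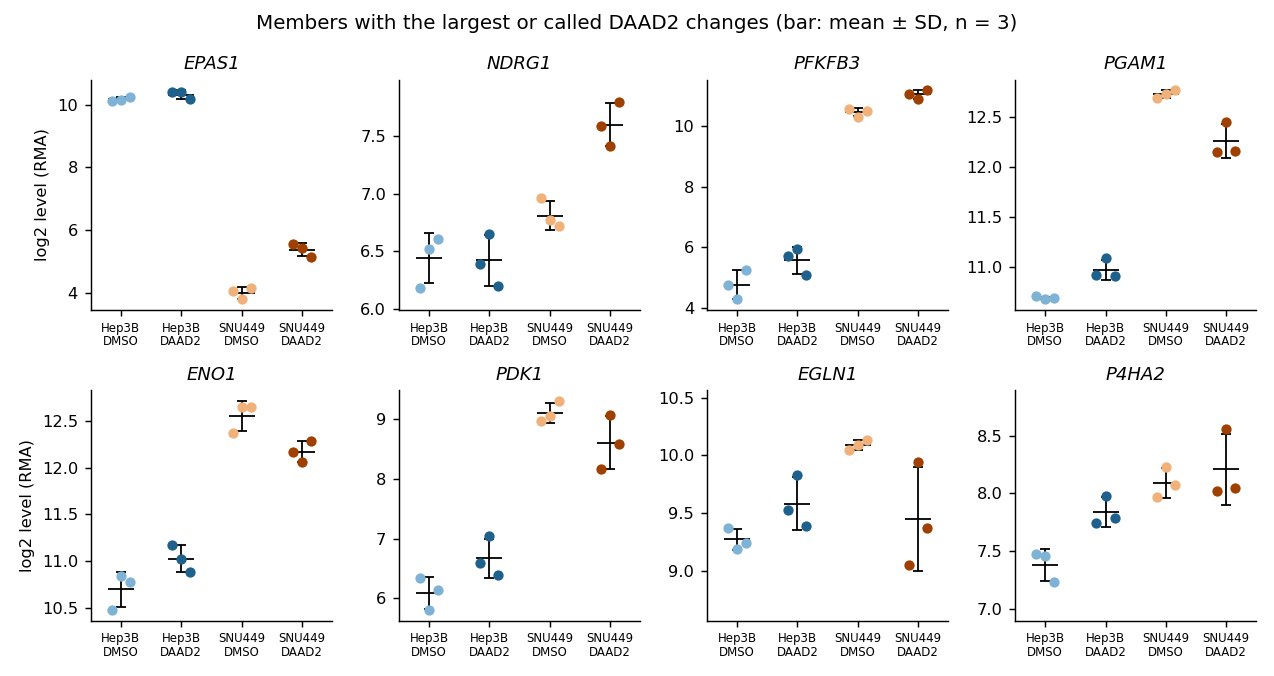
Log2 level on each of the 12 arrays for 8 genes with called or large differences after DAAD2, with the mean and SD of 3 arrays per group. EPAS1 and NDRG1 step up between the SNU449 groups, PGAM1 is higher with DAAD2 in Hep3B and lower with DAAD2 in SNU449, and the middle SNU449 DAAD2 point (replicate 2) of PDK1 and EGLN1 lies near the controls; each gene has its own axis.

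The responses of the lines were compared directly as the change in SNU449 minus the change in Hep3B. EPAS1 was called higher in this difference and PGAM1 lower, where 1.46% and 1.82% of all genes were called higher and lower. The balance of calls over all probe sets turned with the scaling, from 435 higher and 661 lower as reported to 592 and 467 with quantile normalization and 621 and 416 with cyclic loess. EPAS1 differed by 1.24 ± 0.18 (adjusted p = 0.00583), its change being 1.38 in SNU449 and 0.14 in Hep3B, and the mean of its 3 probe sets differed by 0.53 (adjusted p = 0.0212). PGAM1 was at 10.71, 10.68 and 10.69 in Hep3B controls and at 10.92, 11.09 and 10.91 after DAAD2, so that it lay higher there on all 3 arrays and lower on all 3 in SNU449. The difference was -0.75 ± 0.14 (adjusted p = 0.0194). The PGAM1 call was lost without SNU449 DMSO replicate 2 (adjusted p = 0.0519) or 3 (0.0598), without SNU449 DAAD2 replicate 1 (0.0554) or without Hep3B DAAD2 replicate 2 (0.0615).

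Other genes pointed in opposite directions in the lines without passing the test of the difference. ENO1 differed by -0.71 (adjusted p = 0.0607), EGLN1 by -0.96 (0.0821), KDM3A by -0.69 (0.0961), PDK1 by -1.09 (0.103) and P4HA1 by -0.61 (0.158). NDRG1, called in SNU449 alone, differed by 0.81 and was not shown to respond differently (adjusted p = 0.07). Without SNU449 DAAD2 replicate 2 the calls were EPAS1 and NDRG1 higher and PGAM1, PDK1, EGLN1, P4HA1 and KDM3A lower. The difference was below 0 for 23 of the 32 genes, where 46.7% of all genes were so, with a median of -0.22 against 0.02, and this median shrank to -0.07 with cyclic loess.

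Lists of related genes were read in the same way, against 19.4% of all genes called higher and 21.4% called lower between the controls, and 1.82% and 0.561% after DAAD2 in SNU449. Of 23 other glycolysis genes, 4 were higher and 11 lower in SNU449 than in Hep3B controls, among them the muscle enolase ENO3, phosphoglucomutase PGM2 (-1.62) and PFKFB2 (-1.55), which were lower, and the hexokinase-like HKDC1 (3.16), the lactate dehydrogenases LDHA (1.54) and LDHC (0.88) and the transporter SLC2A12 (0.81), which were higher. No gene of that group was called in Hep3B after DAAD2, where PKLR changed by -0.70 (adjusted p = 0.0919) and BPGM, which makes 2,3-bisphosphoglycerate, by 0.66 (0.091). In SNU449, LDHB, a lactate dehydrogenase subunit, rose by 1.55 ± 0.24 (adjusted p = 0.0218) from a control mean of 4.23. That probe set is named as sharing sequence, and the call was lost without any 1 of 3 arrays, SNU449 DMSO replicates 2 and 3 and DAAD2 replicate 1 (adjusted p up to 0.104). LDHB was also called higher in the difference in response (1.58, adjusted p = 0.0168), a call lost without Hep3B DAAD2 replicate 1 (0.0526).

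Of 18 genes of glucose synthesis and pyruvate entry, 5 were higher and 8 lower in SNU449 controls. Pyruvate carboxylase PC (-2.98), the pyruvate carrier MPC1 (-2.97) and fructose bisphosphatase FBP1 (-2.61) were lower there. The phosphatase PDP1, which reactivates pyruvate dehydrogenase, was higher by 2.71, with G6PC3 (1.46), PDK3 (1.43), PDHA1 (0.82) and PDK4 (0.77) also higher. After DAAD2 in SNU449, 2 of the 18 rose and 0 fell. PDK4, a kinase of the same family as PDK1, rose by 1.13 ± 0.20 (adjusted p = 0.0312) and PDP1 by 0.84 ± 0.12 (adjusted p = 0.0187), each call being lost in 4 of 6 fits that left out an array. The response of PDK4 differed between the lines by 1.59 (adjusted p = 0.00871), of which -0.45 was in Hep3B, between means of 3.39 and 2.93 that both lay below the mean array median of 3.78.

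None of 15 oxygen-sensing and HIF partner genes was called within a line, and 3 were higher and 3 lower in SNU449 controls. The higher genes were ARNT2, a partner subunit (1.25), CITED2 (0.99) and CUL2 (0.83), and the lower ones the ubiquitin ligases SIAH2 (-0.91) and SIAH1 (-0.40) and ARNT, the common partner of both HIF subunits (-0.72). The widest change after DAAD2 was in ARNT, at 0.57 in SNU449 (adjusted p = 0.097).

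Of 39 other genes known to be induced by hypoxia, 14 were higher and 16 lower in SNU449 controls, from 7.04 for the collagen cross-linking enzyme LOXL2 to -3.0 for carbonic anhydrase CA12. The Hep3B mean of LOXL2, 3.74, lay below the mean array median, so that the size of its difference is not settled. In SNU449, 6 of them rose after DAAD2 and 1 fell. BHLHE40, a repressor of transcription, rose by 1.36 ± 0.14 (adjusted p = 0.00497) and the lipid droplet protein PLIN2 by 1.31 ± 0.11 (adjusted p = 0.00231), both without loss of the call when any 1 array was left out. LOX (0.94) and DDIT4 (0.76), an inhibitor of mTOR signalling, also rose, and each call was lost in 5 of 6 such fits. The other 2 that rose were angiogenin (ANG, 0.75, adjusted p = 0.0425) and NFIL3 (0.67, adjusted p = 0.026), and the 1 that fell was the transferrin receptor TFRC (-0.71, adjusted p = 0.0415). Whether the ANG, NFIL3 and TFRC calls in SNU449 hold when an array is left out was not examined. In Hep3B 0 of the 39 were called, the widest change being ANG at -0.89 (adjusted p = 0.0868). In the difference between the lines ANG (1.64), BHLHE40 (1.29) and PLIN2 (1.08) were called higher and TFRC (-0.90) lower.

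Markers of cell identity also moved in SNU449 after DAAD2. FGB rose by 1.56 ± 0.19 (adjusted p = 0.00947) and collagen COL1A1 by 1.21 ± 0.19 (adjusted p = 0.0232), the only calls among 9 hepatocyte and 10 mesenchymal markers. Whether these calls hold when an array is left out was not examined. Of 7 leukocyte, 6 endothelial and 5 keratin and epithelial markers, 0 were called. The adhesion protein E-cadherin (CDH1) had arrays without overlap and a change of 1.02 (adjusted p = 0.0664), and 4 of the 5 markers of that list lay above 0. In the difference in response FGB (1.44, adjusted p = 0.0203) and COL1A1 (1.26, adjusted p = 0.0237) were also called higher. The part of these marker shifts in the changes of EPAS1 and NDRG1 was not tested.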

How the data were processed

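The authors made the deposited log2 values from 12 arrays with RMA, as their processing notes state (version not given in the sources used here), which corrects background, normalizes between arrays and gives 1 value a probe set. Quality was checked in BRB Array Tools, per the methods. Array medians lay between 3.71 and 3.85, and the small number of arrays limits the precision. The 62 control probe sets were left out of all tests, which left 54613. Of these, 41091 carried 1 gene symbol, 1801 several and 11721 none in the platform annotation, and 2 probe sets that SLC2A3 shares with SLC2A14 were not used.

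Groups came from the sample labels. Each comparison was fitted with limma 3.58.1 (lmFit and eBayes) in R 4.3.3 on its own 6 arrays, and the difference in response on all 12. Tests were two-sided, Benjamini-Hochberg adjustment ran over every tested probe set, and genes were called at an adjusted p under 0.05. A log2 change is a difference of group means, given with its standard error. Genes described in full were those called within a line or in the difference in response, the largest changes in each direction, and the largest differences between the controls. Tables and plots used Python 3.11.15. The fit was tested on simulated data. The genes and the gene lists were chosen with earlier results of these data known, so counts and medians of a list are descriptions beside the same over all genes.

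Alternatives were centring on array medians, the replicate number as a block, leaving out dim probe sets, quantile normalization, cyclic loess, a trended and robust variance, the mean of all probe sets of a gene, 1 fit over all arrays and leaving out each array in turn. The replicate numbers did not pair the arrays. Promoter windows came from RefSeq on GRCh38.p14.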

Additional observations from a re-analysis of the deposited data

Results flagged for a closer look

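PGAM1 and EPAS1 were called as responding differently in the lines by the interaction term of a limma fit over all 12 arrays. The log2 change in SNU449 minus that in Hep3B was -0.75 for PGAM1 (adjusted p = 0.0194), from 0.28 in Hep3B and -0.47 in SNU449, higher with DAAD2 on 3 of 3 Hep3B arrays and lower on 3 of 3 SNU449 arrays. The PGAM1 call was lost in 4 of 12 fits that left out an array (adjusted p up to 0.0615) and with the replicate number as a block. For EPAS1 the difference was 1.24 (adjusted p = 0.00583), from 0.14 in Hep3B and 1.38 in SNU449, higher than every control on 3 of 3 SNU449 arrays. Its SNU449 control mean of 4.0 lay near the mean array median of 3.78, and its other probe sets differed by 0.26 and 0.09 without a call. The lines received different doses, 2 µM and 20 µM, so line and dose cannot be told apart.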

How the results depend on the processing

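Of 22 changes of named genes followed through the alternatives, 298 of 317 values kept their direction and their side of the threshold, 12 lost the call, 7 gained it and 0 turned. All 12 losses fell on NDRG1 in SNU449 and PGAM1 in the difference in response. Most of the 22 were uncalled from the start or wide differences between the controls, so the pooled count does not describe those calls. In Hep3B the counts stayed at 0 in every alternative, while the median change of 0.15 became 0.06 with quantile normalization, 0.03 with cyclic loess and 0.2 with centring on array medians. In SNU449 the 2 genes called higher became 1 with quantile normalization, 3 with trended and robust variances or the mean of all probe sets and 1 to 3 when an array was left out, and the 0 called lower became 1 with trended and robust variances, 1 in the fit over all arrays and 0 to 2 when an array was left out (2 without SNU449 DAAD2 replicate 2). In the difference in response, the 1 gene called higher became 2 with quantile normalization, cyclic loess or the mean of all probe sets, and 1 to 2 when an array was left out. The 1 called lower became 3 with trended and robust variances, 2 with the mean of all probe sets and 0 to 5 when an array was left out (5 without SNU449 DAAD2 replicate 2), and the median of -0.22 became -0.07 with cyclic loess. The cause was not tested. Between the controls 23 to 27 genes were called higher and 3 lower in all alternatives run.

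With the replicate number as a block, NDRG1 lost its call in SNU449 (adjusted p = 0.0785, 1 gene left called higher) and PGAM1 in the difference in response (adjusted p = 0.0723, 0 left called lower). Deviations of arrays that share a number correlated at -0.27 to 0.09 in Hep3B and -0.08 to -0.01 in SNU449 across probe sets, so the numbers do not pair the arrays. The median over all genes moved most in Hep3B, from -0.01 to 0.05 with centring on array medians. Dim probe sets limit the size of the EPAS1, HK2, PFKP, LDHB, LOXL2, PDK4, SLC2A3 and EGLN3 differences.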
